A study of Mus musculus with 11 samples.

Results

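Mouse 2-cell embryos formed from eggs without Rnf2 were compared with 2-cell embryos from eggs that kept it, without any inhibitor. The comparison was chosen by the array labels and took in 6 of the 11 arrays in the series: 3 of mutant embryos, labelled maternal Ring1-Rnf2-, and 3 of control embryos, labelled maternal Ring1-Rnf2+. The eggs of both groups lacked Ring1, so the groups differed in maternal Rnf2 on a shared Ring1-deficient background, and neither group was wild type. The remaining 5 arrays were of embryos kept in 24 µg/ml α-amanitin, which blocks RNA polymerase II, from 6 to 35 h after fertilization: 2 of mutant and 3 of control embryos.

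In all 4 groups the eggs came from hormone-primed females of 5 to 10 weeks on a mixed 129/Sv and C57BL/6J background and met sperm of wild-type males of 10 to 16 weeks in vitro. Each array held RNA of 40 embryos pooled from several mice, amplified from the whole transcriptome before labelling. The arrays of a group are described as biological replicates. The promoter or recombinase used to remove Rnf2 and the hour at which untreated embryos were harvested are not stated in the labels. A difference in developmental timing between the groups was therefore not tested.

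Ring1 and Rnf2 (also called Ring1b) are the alternative catalytic subunits of Polycomb repressive complex 1. This complex attaches ubiquitin to histone H2A and holds genes of development and differentiation silent. A mouse egg is transcriptionally silent when it is fertilized, and the embryo lives on stored maternal RNA until its own genome is switched on, mainly at the late 2-cell stage. At that time maternal RNA is cleared while genes for transcription, RNA processing and ribosome production are activated.

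Levels are given on the log2 scale as deposited, so 1 unit is a 2-fold difference, and they are not compared between genes, because probes differ in brightness. Differences are mutant minus control, with the standard error of a limma fit over 34760 probe sets. A gene was called higher or lower where the adjusted p (Benjamini-Hochberg over all probe sets) was under 0.05. Each gene is represented by its brightest probe set with 1 symbol, which gave 21642 genes. Values over 3 arrays measure the spread between these pools only, and 6 arrays limit the precision.

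Arrays of the same genotype resembled each other more than arrays of different genotypes. Pearson correlations over probe sets were 0.968 to 0.974 within the mutant group and 0.981 to 0.984 within the control group. Between genotypes they were 0.925 to 0.933 for mutant replicate 1, 0.889 to 0.899 for replicate 2 and 0.913 to 0.922 for replicate 3. Mutant replicate 2 stood farthest from the control arrays. Probe sets with a level above 6 made up 11.9% to 12.9% of each mutant array and 15.1% to 16.1% of each control array.

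Rnf2 itself, the gene that separates the groups, was at 4.998, 5.17 and 5.08 in mutant embryos, against 6.84, 6.59 and 6.70 in control embryos. All mutant arrays lay below all control arrays, with a difference of -1.63 ± 0.11 and an adjusted p of 7.97e-06 in limma. An exact permutation test on the 6 values gave p = 0.1, the smallest that 3 against 3 arrays can give. Ring1 was at 4.37, 4.61 and 4.48 in mutant embryos, against 4.55, 4.79 and 4.35 in control embryos, with a difference of -0.07, and was not called.

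Marker lists checked the labelled cell type. Among 28 genes that mark oocytes and 2-cell embryos, the levels summed on the linear scale were 8124 to 9375 in mutant embryos and 5732 to 6335 in control embryos. For 30 cumulus and granulosa cell markers the sums were 768 to 801 in mutant embryos and 911 to 934 in control embryos. Of these 30 markers 4 were called higher and 2 lower, with a median difference of 0.10. The number higher was 2 without mutant replicate 2 or without control replicate 1. Has2, Ptx3 and Fshr, defining markers of those follicle cells, were not called, with differences of 0.24, -0.07 and -0.01. For 19 sperm markers the sums were 392 to 428 in mutant embryos and 403 to 417 in control embryos, with 1 gene higher (2 without control replicate 2) and 2 lower. For 17 blood and immune markers they were 328 to 362 in mutant embryos and 329 to 369 in control embryos, with no gene called. No sperm or blood marker had a mean above 6 in either group. Median levels in mutant and control embryos were 4.37 and 4.30 for sperm and 4.37 and 4.35 for blood markers. The sums of these 2 lists thus come from dim genes. The part of these marker sums in the results below was not tested. Fewer cells of a type and less RNA per cell cannot be told apart in such pools.

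Loss of maternal Rnf2 was accompanied by more falls than rises in the deposited values. Of 21642 genes, 1884 were called higher in mutant embryos (8.71%) and 3587 lower (16.6%), together 25.3%. The median difference was 0.56 among the genes called higher and -0.76 among those called lower, against 0.01 over all genes. At least 2-fold rises were seen in 252 genes and at least 2-fold falls in 1220. For scale, the median standard deviation over 3 arrays was 0.10 in the mutant and 0.10 in the control group.

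The balance depended on how the arrays were scaled to each other. Among probe sets called, 33.2% were higher in the mutant with the deposited values, 52.4% after quantile normalization and 40.9% after cyclic loess. Quantile normalization gave 692 probe sets at least 2-fold higher and 957 at least 2-fold lower, against 327 and 1726 with the deposited values. Over all probe sets 6.80% were called higher and 13.7% lower with the deposited values (20.5% in all), and groups did not overlap in 35.0%. No setting moved the median of all genes by over 0.1. Counts after quantile normalization stand beside the main counts of the gene groups below, in the same order. Brighter genes were called more often. Split by brightness into deciles, 36.9%, 40.3% and 35.1% of genes in deciles 8, 9 and 10 (the brightest) were called lower. In deciles 9 and 10, 18.6% and 19.2% were called higher. The gene groups below were not compared with genes of like brightness. Whether their shares exceed those of other bright genes was not tested. Counts that moved by over 1.5 times when 1 array was left out are given with that array.

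**Figure D1:**
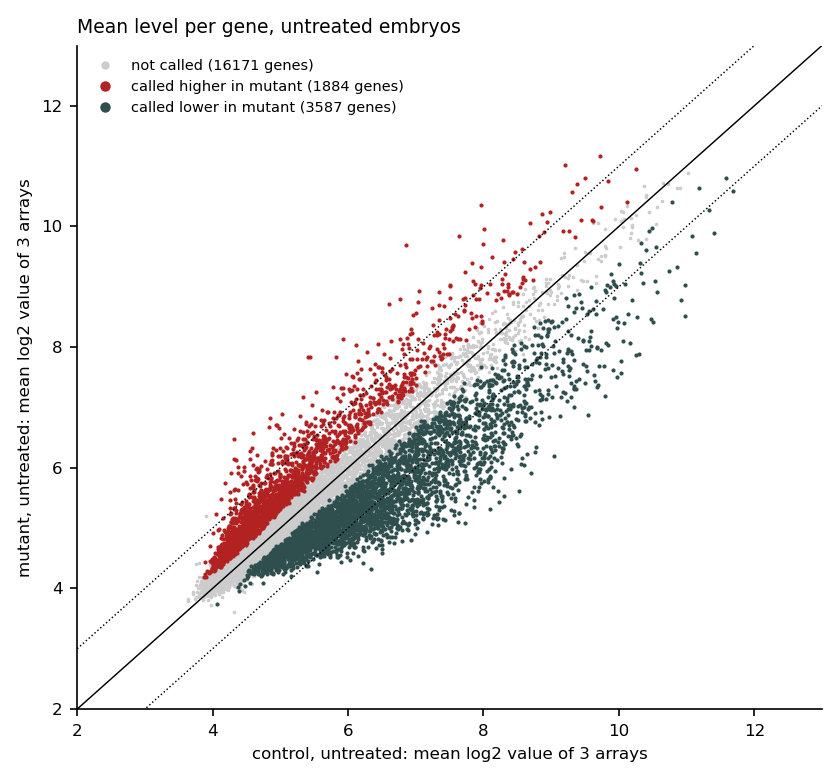
Mean log2 level in untreated mutant embryos (vertical) against untreated control embryos (horizontal), 1 point per gene; the solid line is equality, dotted lines mark 2-fold, and 1884 genes called higher and 3587 called lower are coloured. Falls reach farther from the line than rises: 106 genes were at least 4-fold lower and 10 at least 4-fold higher.

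The largest named fall was H2-Q6, a non-classical class I histocompatibility gene, at 6.15, 5.28 and 5.41 in mutant embryos, against 8.77, 8.38 and 8.41 in control embryos. Its level was 7.50-fold higher in the control (-2.91 ± 0.24, adjusted p = 1.72e-05). Mutant replicate 1 was the highest mutant array and still lay more than 2 units below every control array.

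Ctsc, the lysosomal protease cathepsin C, was at 7.04, 5.23 and 6.31 in mutant embryos, against 9.17, 8.69 and 9.25 in control embryos, a difference of -2.84 ± 0.35. Npl, the lyase that breaks down sialic acid, was at 6.25, 5.20 and 6.27 in mutant embryos, against 8.94, 8.49 and 8.68 in control embryos (-2.80 ± 0.25). In both genes replicate 2 was the lowest mutant array, as it was in 1008 of the 1220 genes that fell at least 2-fold (82.6%). Without that array Ctsc and Npl differed by -2.36 and -2.44. Of the 1726 probe sets at least 2-fold lower with all arrays, 1506 (87.3%) were also so without it, which is 98.0% of the 1536 found then.

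Cox17, the copper chaperone of cytochrome c oxidase, was at 5.70, 5.26 and 5.33 in mutant embryos, against 8.67, 8.01 and 8.003 in control embryos (-2.79 ± 0.18). Tomm5, a small subunit of the outer membrane import channel, was at 5.85, 4.90 and 5.20 in mutant embryos, against 8.31, 7.80 and 8.17 in control embryos (-2.78 ± 0.22). Uqcc3, an assembly factor of respiratory complex III, differed by -2.39 ± 0.18. Groups that did not overlap were a condition for naming these genes, which 41.5% of all genes met.

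Wdr74, a nuclear factor of large-subunit assembly, was at 6.04, 4.85 and 5.96 in mutant embryos, against 8.36, 8.07 and 8.20 in control embryos (-2.59 ± 0.26). Riox1, an oxygenase that acts on a ribosomal protein, was at 5.42, 4.87 and 4.96 in mutant embryos, against 7.88, 7.52 and 7.76 in control embryos (-2.64 ± 0.16). The small-subunit proteins Rps25 and Rps18 differed by -2.66 ± 0.29 and -2.61 ± 0.26, but they have near-identical pseudogene copies and only 4 of 6 probe sets of Rps25 and 3 of 4 of Rps18 were called lower, so their values are uncertain. Impdh2, which makes guanine nucleotides, differed by -2.46 ± 0.30, and both of its probe sets were called lower.

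Flvcr2, a membrane transporter of choline and haem, was at 5.99, 5.23 and 5.37 in mutant embryos, against 8.54, 8.02 and 8.37 in control embryos (-2.78 ± 0.19). Folr1, a folate receptor, differed by -2.41 ± 0.17, Gldc, the glycine-cleaving decarboxylase, by -2.34 ± 0.14, and Psmb5, a catalytic subunit of the proteasome, by -2.42 ± 0.23. Prmt1, the main arginine methyltransferase, differed by -2.40 ± 0.21, Gins3, a part of the replicative helicase, by -2.39 ± 0.18, and Sumo2, a ubiquitin-like modifier, by -2.32 ± 0.27. Gpn3, a GTPase that serves the nuclear import of RNA polymerase II, differed by -2.34 ± 0.13. The 30 largest named falls ranged from -2.91 to -2.32.

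**Figure D2:**
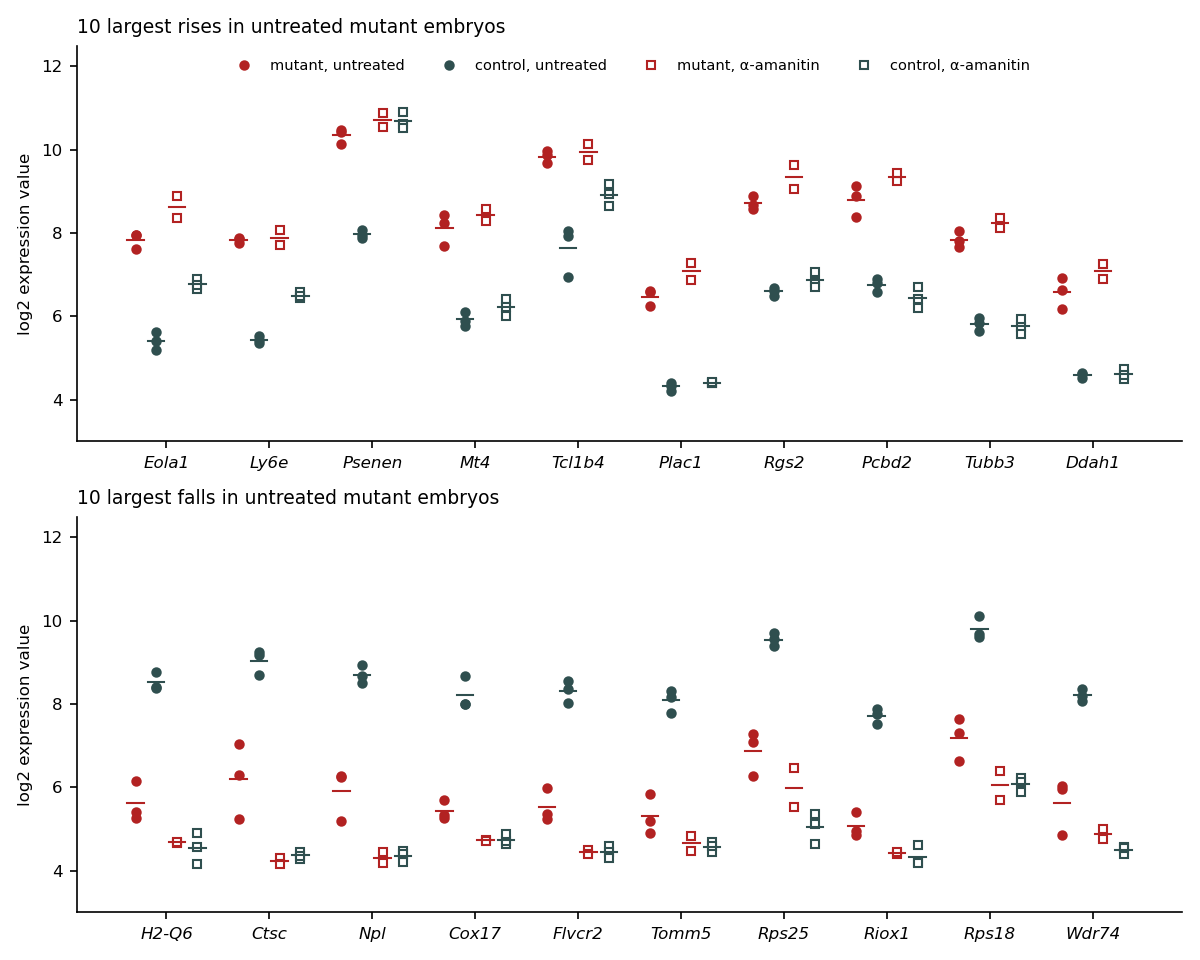
Log2 level in each array for the 10 largest named rises and the 10 largest named falls, with the untreated mutant and control and then the treated mutant and control arrays side by side for each gene; filled circles are untreated, open squares α-amanitin-treated arrays, and short lines are group means. For all 20 genes the untreated mutant points lie apart from the untreated control points, as the naming rule required. None of the 10 falls was called under α-amanitin, where 6.94% of all genes were called higher and 4.01% lower.

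Promoter sequences are shown for 3 falls and 3 rises, picked to show the range of CpG content in each direction, since the CpG-rich share of rises and falls is compared further below. They are RefSeq sequences of the GRCm38.p6 build, from 250 bases before to 50 bases after the annotated start, read 5′ to 3′ along the gene, with CpG dinucleotides in capitals. Among the falls, Tomm5 (chr4:45108064-45108363, minus strand) has 7 CpG. Its only TATAAA match reads on the opposite strand, near the upstream end of the window and far from the start. Wdr74 (chr19:8735589-8735888, plus strand) has 15 CpG and an Ets core, and Gpn3 (chr5:122372258-122372557, plus strand) has 37 CpG and an NRF1 element. Among the rises, Plac1 (chrX:53240061-53240360, minus strand) has 3 CpG, Krt73 (chr15:101802311-101802610, minus strand) has 4 and a TATA box, and Rgs2 (chr1:144004100-144004399, minus strand) has 33 and an NRF1 element. Of the 30 largest rises 24 had a promoter sequence, with a median of 15 CpG and 10 that were CpG-rich, and of the 30 largest falls 27, with a median of 17 and 15 that were CpG-rich.
Tomm5: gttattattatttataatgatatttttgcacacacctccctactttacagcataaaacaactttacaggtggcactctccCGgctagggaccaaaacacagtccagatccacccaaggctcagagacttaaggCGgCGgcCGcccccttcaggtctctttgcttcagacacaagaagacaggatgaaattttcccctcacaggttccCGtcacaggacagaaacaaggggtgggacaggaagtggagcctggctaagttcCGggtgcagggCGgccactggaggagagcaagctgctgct
Wdr74: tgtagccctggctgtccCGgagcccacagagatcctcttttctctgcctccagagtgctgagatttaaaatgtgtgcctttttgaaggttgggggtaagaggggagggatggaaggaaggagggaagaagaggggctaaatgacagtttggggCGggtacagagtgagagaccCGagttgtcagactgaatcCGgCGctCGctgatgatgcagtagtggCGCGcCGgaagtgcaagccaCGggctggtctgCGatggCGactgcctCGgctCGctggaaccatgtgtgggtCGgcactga
Gpn3: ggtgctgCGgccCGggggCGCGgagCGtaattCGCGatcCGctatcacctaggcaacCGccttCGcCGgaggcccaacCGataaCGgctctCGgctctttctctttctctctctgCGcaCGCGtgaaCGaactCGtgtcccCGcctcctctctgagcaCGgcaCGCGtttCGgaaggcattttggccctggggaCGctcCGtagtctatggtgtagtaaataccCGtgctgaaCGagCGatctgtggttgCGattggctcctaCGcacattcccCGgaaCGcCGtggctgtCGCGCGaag
Plac1: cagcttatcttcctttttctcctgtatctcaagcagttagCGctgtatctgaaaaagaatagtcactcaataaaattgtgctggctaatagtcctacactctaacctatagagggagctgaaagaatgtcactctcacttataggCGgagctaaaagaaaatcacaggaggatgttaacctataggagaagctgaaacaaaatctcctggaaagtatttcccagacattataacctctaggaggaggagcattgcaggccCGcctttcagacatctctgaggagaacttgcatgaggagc
Krt73: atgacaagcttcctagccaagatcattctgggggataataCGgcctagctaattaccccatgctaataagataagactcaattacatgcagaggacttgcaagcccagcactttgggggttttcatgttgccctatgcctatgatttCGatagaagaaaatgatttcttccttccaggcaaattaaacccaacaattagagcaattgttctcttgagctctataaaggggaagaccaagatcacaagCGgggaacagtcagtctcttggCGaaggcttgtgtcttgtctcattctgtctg
Rgs2: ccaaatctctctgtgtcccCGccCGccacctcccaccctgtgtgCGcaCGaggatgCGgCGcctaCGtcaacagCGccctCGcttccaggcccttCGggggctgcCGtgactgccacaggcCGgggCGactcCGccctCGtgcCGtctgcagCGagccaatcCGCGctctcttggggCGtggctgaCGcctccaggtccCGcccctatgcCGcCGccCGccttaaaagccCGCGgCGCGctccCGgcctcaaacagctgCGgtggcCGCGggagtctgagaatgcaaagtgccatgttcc

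The machinery of transcription was lower across its main complexes. Of 12 RNA polymerase II subunits measured, 8 fell and 0 rose, with a median difference of -0.88; after quantile normalization 7 fell and 3 rose. With the deposited values the number higher was 1 without control replicate 1. Polr2i was at 6.54, 6.25 and 6.19 in mutant embryos, against 8.53, 8.11 and 8.23 in control embryos (-1.96 ± 0.13), Polr2k differed by -1.53 ± 0.14 and Polr2e by -1.47 ± 0.13. Of 16 subunits of polymerases I and III, which make ribosomal and transfer RNA, 13 fell and 0 rose, with a median of -1.13 and the same counts after quantile normalization. Polr3b, the second-largest polymerase III subunit, was at 4.998, 4.88 and 5.10 in mutant embryos, against 6.26, 6.43 and 6.40 in control embryos (-1.37 ± 0.09).

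General transcription and elongation factors also fell more often than they rose, and 15 of them were not called. Of 44 measured, 28 fell and 1 rose, with a median of -0.56; after quantile normalization 26 fell and 9 rose. Gtf2h5, a subunit of TFIIH, was at 7.52, 6.79 and 7.01 in mutant embryos, against 9.39, 9.11 and 9.20 in control embryos (-2.13 ± 0.17), Taf9, a subunit of TFIID, differed by -1.97 ± 0.17, and the elongation factor Ell2 by -1.42 ± 0.12. Gtf2b, which bridges the polymerase and TFIID, was the member that rose, at 8.68, 8.50 and 8.88 in mutant embryos, against 7.62, 7.45 and 7.20 in control embryos (1.26 ± 0.15). Of 30 Mediator subunits, 18 fell and 5 rose, with a median of -0.42. Med29 differed by -1.87 ± 0.18 and Med4 by -1.35 ± 0.14, and after quantile normalization 10 fell and 8 rose.

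RNA processing factors were lower as well. Of 43 RNA helicases of the DEAD and DEAH box, 29 fell and 1 rose (median -0.56; 24 and 3 after quantile normalization). Ddx49, which works in ribosome production, was at 5.59, 5.28 and 5.60 in mutant embryos, against 7.75, 7.50 and 7.50 in control embryos (-2.09 ± 0.17), Dhx9 differed by -1.56 ± 0.10 and Ddx52 by -1.39 ± 0.10. Of 15 nuclear exosome genes, 10 fell and 1 rose (median -0.91; 9 and 3 after quantile normalization), among them the helicase Mtrex (-1.43 ± 0.13) and Exosc1 (-1.45 ± 0.14). Of 18 genes of the exon junction complex and nonsense-mediated decay, 14 fell and 0 rose (median -0.53; 10 and 1 after quantile normalization). Rbm8a, a core protein of that junction complex, differed by -1.16 ± 0.16, and the mRNA export adaptor Alyref by -0.95 ± 0.13. The number higher was 0 without mutant replicate 3 or control replicate 3 for the helicases and 0 without mutant replicate 2 or control replicate 2 or 3 for the exosome.

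Of 21 cleavage and polyadenylation genes, 13 fell and 1 rose (median -0.49; 9 and 3 after quantile normalization). Cpsf4 was at 5.54, 5.16 and 5.30 in mutant embryos, against 6.96, 6.91 and 6.85 in control embryos (-1.57 ± 0.10). Of 17 Sm and LSm proteins, 5 fell and 1 rose, against 5 and 5 after quantile normalization, with a median of -0.07 that lay at -0.12 to 0.20 over the alternatives. Lsm8, part of the ring on U6 RNA, differed by -1.68 ± 0.16, and Snrpd2 by -2.09 ± 0.27, with 3 of its 4 probe sets called lower. The number of Sm and LSm genes higher was 2 without mutant replicate 3.

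Enzymes that prepare transfer RNA fell in larger number than they rose. Of 21 aminoacyl-tRNA synthetase genes, 12 fell and 2 rose (median -0.60; 9 and 3 after quantile normalization), and Hars, which charges histidine tRNA, differed by -1.52 ± 0.13. Of 36 enzymes that modify transfer and ribosomal RNA, 16 fell and 4 rose (median -0.32; 11 and 4 after quantile normalization). Trub2, a mitochondrial pseudouridine synthase, differed by -1.84 ± 0.13, and Trmt61a, a methyltransferase, by -1.75 ± 0.10. The number of modifying enzymes higher was 2 without control replicate 1.

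Transport through the nuclear pore showed many falls. Of 31 importins, exportins and Ran cycle genes, 19 fell and 2 rose, with a median of -0.68 (16 and 5 after quantile normalization). Tnpo3, which imports splicing factors, was at 6.29, 5.50 and 6.05 in mutant embryos, against 8.32, 8.02 and 8.17 in control embryos (-2.22 ± 0.17), and Ipo5 differed by -1.73 ± 0.12. Of 29 nucleoporins, 14 fell and 2 rose (median -0.36), with Ranbp2 at -1.47 ± 0.14 and Nup133 at -1.18 ± 0.11. The nucleoporin count depended on scaling: after quantile normalization 9 fell and 10 rose. The number of nucleoporins higher was 1 without mutant replicate 1 or 3 or control replicate 2 or 3.

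Mitochondrial biogenesis genes fell over a wide front. Of 76 mitochondrial ribosomal proteins, 37 fell and 3 rose (median -0.38; 30 and 11 after quantile normalization). Mrpl34 was at 6.15, 5.35 and 5.56 in mutant embryos, against 8.13, 7.65 and 7.83 in control embryos (-2.18 ± 0.20), and Mrpl20 differed by -1.59 ± 0.15. The number of these ribosomal proteins higher was 1 without mutant replicate 1 or 3 or control replicate 2 or 3. Of 30 genes of the import machinery, 21 fell and 0 rose (median -0.83; 18 and 1 after quantile normalization). Besides Tomm5, Timm13, a carrier in the intermembrane space, was at 5.53, 5.46 and 5.33 in mutant embryos, against 7.56, 7.17 and 7.43 in control embryos (-1.94 ± 0.12), and Pmpca, part of the peptidase that removes import signals, differed by -1.52 ± 0.10.

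Energy metabolism was mixed. Of 26 genes of the citric acid cycle and pyruvate dehydrogenase, 8 fell and 3 rose, against 6 and 7 after quantile normalization, and the median of -0.09 became 0.03. Mpc2, a subunit of the mitochondrial pyruvate carrier, was at 6.63, 6.46 and 6.35 in mutant embryos, against 8.15, 7.99 and 8.02 in control embryos (-1.57 ± 0.09), while Mdh1, the cytosolic malate dehydrogenase, was at 7.05, 6.60 and 6.73 in mutant embryos, against 5.71, 5.76 and 5.46 in control embryos (1.15 ± 0.14). Of 31 genes of fatty acid oxidation and peroxisomes, 10 fell and 2 rose (median -0.12; 8 and 2 after quantile normalization), with Eci1, an isomerase of that pathway, at -1.64 ± 0.18; the number higher was 1 without mutant replicate 1 or 3 or control replicate 2 or 3. Of 26 cholesterol synthesis genes, 9 fell and 5 rose, with Ebp at -1.82 ± 0.19 and Hsd17b7 and Sc5d at 1.105 ± 0.15 and 1.04 ± 0.12; 6 and 6 were called after quantile normalization, when the median of -0.09 became 0.06.

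Genes of nucleotide and one-carbon metabolism were lower in large part. Of 29 genes of purine and pyrimidine synthesis, 19 fell and 2 rose, with a median of -0.87 (17 and 4 after quantile normalization). Adsl, which acts in purine synthesis, was at 5.77, 5.26 and 5.71 in mutant embryos, against 7.13, 6.91 and 7.07 in control embryos (-1.45 ± 0.13), and Impdh1 and Paics differed by -1.63 ± 0.10 and -1.26 ± 0.11. Prps2, which makes the sugar phosphate that starts the pathway, went the other way, at 5.89, 5.59 and 6.27 in mutant embryos, against 4.37, 4.28 and 4.49 in control embryos (1.54 ± 0.16). Of 24 one-carbon and folate genes, 14 fell and 2 rose (median -0.53; 13 and 4 after quantile normalization). The number of one-carbon genes higher was 1 without mutant replicate 2 or 3 or control replicate 1, 2 or 3. Psat1, an enzyme of serine synthesis, was at 5.34, 4.87 and 5.18 in mutant embryos, against 7.70, 7.15 and 7.46 in control embryos (-2.31 ± 0.15).

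Lysosome and autophagy genes fell more often than they rose. Of 37 lysosomal proteins, 19 fell and 1 rose (median -0.32; 18 and 5 after quantile normalization). Ctsz, a lysosomal cathepsin, was at 6.16, 5.74 and 5.78 in mutant embryos, against 7.52, 7.52 and 7.59 in control embryos (-1.65 ± 0.13), and Glb1, a lysosomal galactosidase, differed by -1.30 ± 0.12. Of 34 autophagy genes, 18 fell and 1 rose (median -0.38; 13 and 6 after quantile normalization). Wipi2 and Map1lc3b, which act on the forming autophagosome, differed by -1.59 ± 0.16 and -1.57 ± 0.17, and Rb1cc1, a scaffold of the initiating kinase, by -1.17 ± 0.13. The number higher was 0 without mutant replicate 2 or control replicate 3 for lysosomal proteins and 2 without control replicate 1 for autophagy.

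The pump that acidifies these compartments was split. Of 21 subunits and helpers of the vacuolar proton pump, 3 rose and 5 fell, against 8 and 2 after quantile normalization, with a median of 0.01 that lay at -0.02 to 0.18 over the alternatives. The number lower was 3 without mutant replicate 2 or without control replicate 1. Atp6v1f was among the largest rises, at 8.18, 8.22 and 7.69 in mutant embryos, against 6.44, 6.08 and 5.82 in control embryos (1.92 ± 0.18), whereas Atp6ap1, an accessory subunit, was at 5.91, 5.54 and 5.61 in mutant embryos, against 7.18, 7.06 and 6.90 in control embryos (-1.36 ± 0.12).

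Chromatin regulators other than Polycomb proteins showed more falls than rises, as did all genes in brightness deciles 8 to 10. Of 45 remodeller genes, 17 fell and 3 rose (median -0.25; 13 and 8 after quantile normalization), and the 3 rises became 0 or 1 when any of the 6 arrays was left out. Mta2, a subunit of the NuRD complex, was at 6.21, 5.54 and 5.80 in mutant embryos, against 8.14, 7.96 and 8.17 in control embryos (-2.24 ± 0.15). Of 18 genes of histone H3 lysine 9 methylation and heterochromatin, 9 fell and 2 rose (median -0.34; 9 and 4 after quantile normalization). Morc2a differed by -1.35 ± 0.13 and Setdb2 by -0.97 ± 0.11, and Cbx3, a reader of that mark, by -1.78 ± 0.14 with 3 of 6 probe sets called lower.

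Histone acetylation genes and chaperones were divided. Of 34 acetylation genes, 10 fell and 5 rose (median -0.12; 7 and 9 after quantile normalization). Hdac1, a deacetylase of early embryos, was at 6.61, 6.08 and 6.39 in mutant embryos, against 8.21, 8.17 and 8.10 in control embryos (-1.80 ± 0.16), and the acetyltransferase Ep300 differed by -1.77 ± 0.16. The number of acetylation genes higher was 3 without mutant replicate 2 or 3 or control replicate 2. Of 26 histone chaperones and variants, 11 fell and 4 rose (median -0.29; 7 and 8 after quantile normalization). The variant H2az2 differed by -1.68 ± 0.17 and the chaperone Hira by -0.81 ± 0.10, while the oocyte linker histone H1f8 was at 7.60, 7.26 and 7.22 in mutant embryos, against 6.24, 6.51 and 6.27 in control embryos (1.02 ± 0.14).

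Genes of chromosome structure and cell division were lower in larger number with the deposited values, as were all genes in brightness deciles 8 to 10. Of 27 cohesin and condensin genes, 17 fell and 2 rose (median -0.42; 9 and 5 after quantile normalization). The cohesin subunit Stag2 was at 4.66, 4.45 and 4.53 in mutant embryos, against 5.61, 5.45 and 5.58 in control embryos (-0.999 ± 0.08), and the condensin subunit Ncapd2 differed by -1.13 ± 0.14; 1 gene rather than 2 was higher when any of the 6 arrays was left out. Of 39 kinesins, 14 fell and 4 rose (median -0.14; 13 and 5 after quantile normalization), with Kif11, a motor of the bipolar spindle, at -1.36 ± 0.13. Of 19 genes of the anaphase-promoting complex, 7 fell and 2 rose (median -0.28; 4 and 6 after quantile normalization), with the activator Cdc20 at -1.30 ± 0.15. Of 50 DNA repair genes, 17 fell and 5 rose (median -0.03; 9 and 8 after quantile normalization), with the checkpoint kinase Chek2 at -1.68 ± 0.13. Single arrays moved the number higher, which was 2 without mutant replicate 2 or control replicate 3 for kinesins, 1 without mutant replicate 1 or 2 or control replicate 3 for the anaphase-promoting complex, and 2 without mutant replicate 3 or control replicate 3 and 3 without mutant replicate 1 for DNA repair.

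Genes of ubiquitin handling and membrane traffic moved in both directions. Of 58 F-box and cullin ligases, 10 rose and 16 fell, of 32 ubiquitin-conjugating enzymes 4 and 9, and of 46 Usp deubiquitinases 3 and 14. Their medians were -0.01, -0.15 and -0.08, and after quantile normalization all 3 were above 0, at 0.18, 0.12 and 0.07. With that scaling 23 ligases rose and 8 fell, against 9 and 6 conjugating enzymes and 14 and 10 Usp genes. Without mutant replicate 1, 6 rather than 10 of the ligases rose. The number of conjugating enzymes that rose was 2 without mutant replicate 1 or 2. Ube2o differed by -1.80 ± 0.20, Usp33 by -1.90 ± 0.18 and Fbxo31 by -1.68 ± 0.14. Of 52 Rab GTPases, 9 rose and 13 fell (median -0.04; 13 and 8 after quantile normalization), and 5 rose without mutant replicate 2 and 6 without control replicate 3. Rab20 and Rab24 differed by -2.47 ± 0.18 and -2.09 ± 0.14. Of 44 coat and secretory pathway proteins, 6 rose and 18 fell (median -0.15; 16 and 12 after quantile normalization), with Ssr2, part of the complex at the translocation channel, at -2.12 ± 0.19.

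Of 31 iron, haem and copper genes, 14 fell and 6 rose (median -0.12; 11 and 8 after quantile normalization); besides Cox17 and Flvcr2, Alas1, the rate-limiting enzyme of haem synthesis, differed by -1.36 ± 0.12. Of 26 metallothioneins and zinc transporters, 9 fell and 4 rose (median -0.12; 7 and 7 after quantile normalization). The zinc importer Slc39a4 was at 6.37, 5.48 and 6.19 in mutant embryos, against 8.20, 7.94 and 8.18 in control embryos (-2.09 ± 0.19). Of 35 antioxidant enzymes, 14 fell and 6 rose (median -0.11; 11 and 9 after quantile normalization), with Gpx4, which repairs lipid peroxides, at -1.31 ± 0.14.

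**Figure D3:**
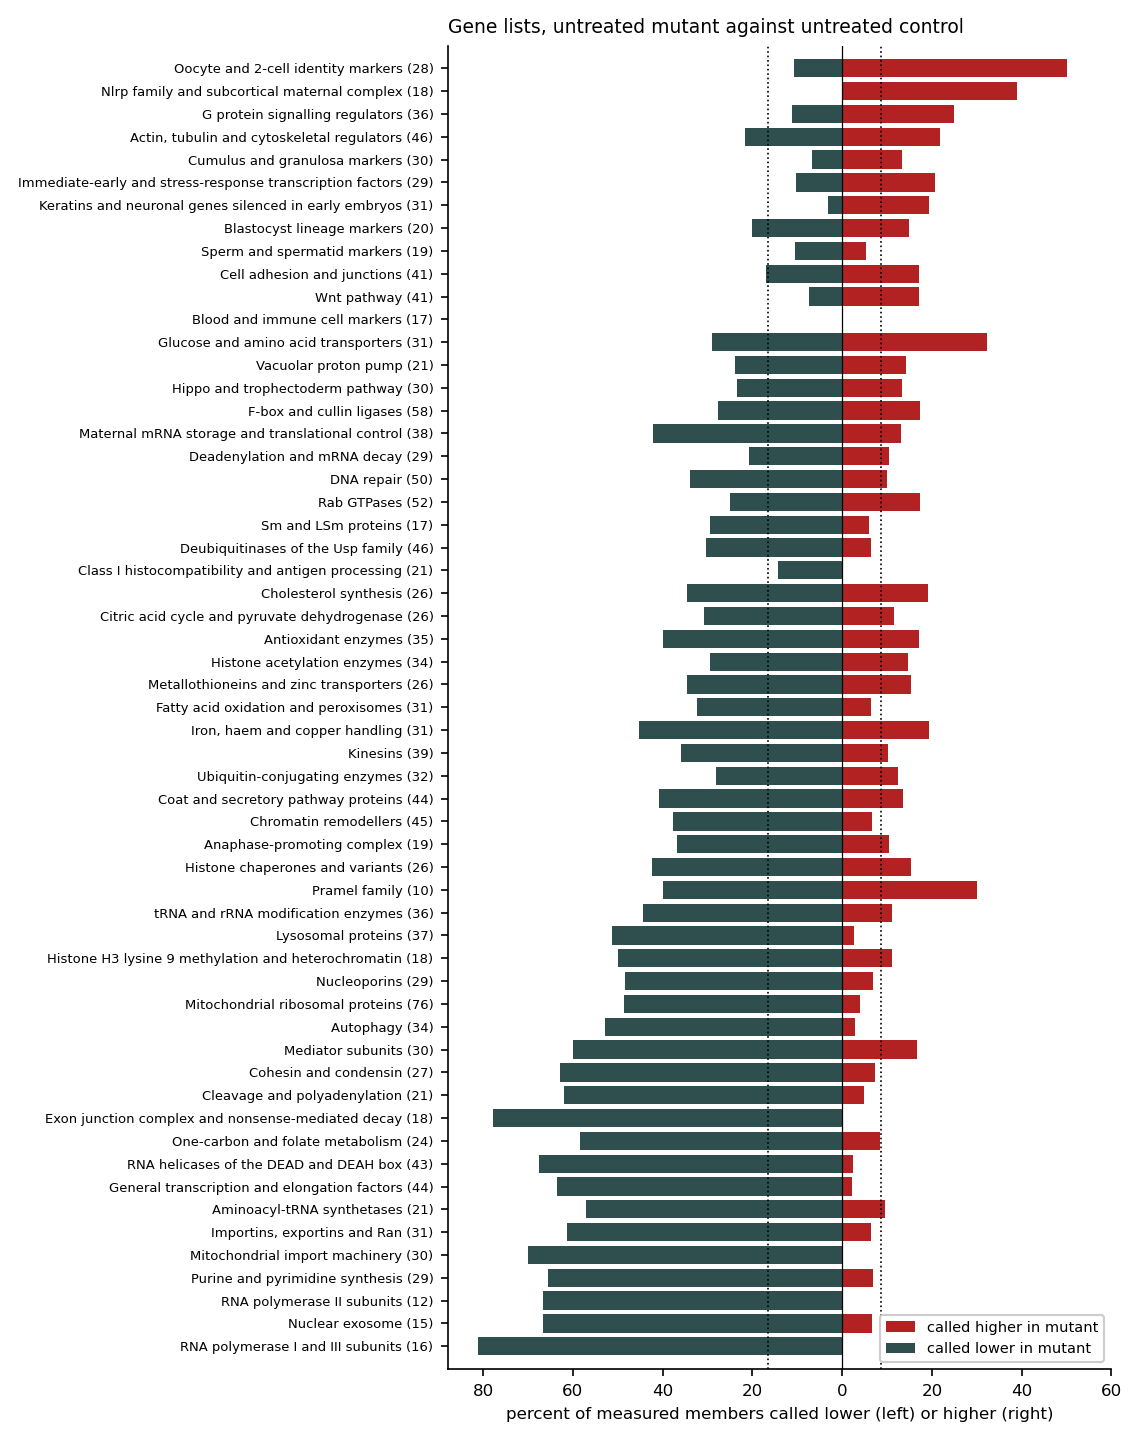
Percent of the measured members of each gene list with at least 10 genes that were called lower (left) or higher (right) in untreated mutant embryos; dotted lines mark the shares over all genes, 16.6% lower and 8.71% higher. Of the lists drawn, RNA polymerase I and III and the exon junction complex extend farthest to the left, and the oocyte and 2-cell list farthest to the right.

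With the deposited values, rises of at least 2-fold were fewer than such falls. Eola1, an X-linked gene whose protein has an ASCH domain, was at 7.62, 7.95 and 7.95 in mutant embryos, against 5.63, 5.40 and 5.20 in control embryos, 5.40-fold higher (2.43 ± 0.16, adjusted p = 7.14e-06). Ly6e, a membrane-anchored surface protein, was at 7.85, 7.88 and 7.76 in mutant embryos, against 5.36, 5.43 and 5.53 in control embryos (2.39 ± 0.10). Psenen, a subunit of γ-secretase, was at 10.48, 10.43 and 10.14 in mutant embryos, against 7.95, 8.08 and 7.88 in control embryos (2.38 ± 0.14). For each of these genes the lowest mutant array stood about 2 units or more above the highest control array. A clone-named gene, Gm4340, had a larger difference of 2.83; the naming rule passed over such names, and it is mentioned after its value was seen.

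Further genes among the 30 largest rises are described by role and not in order of size. Mt4, a metallothionein of squamous epithelia, was at 8.44, 8.25 and 7.70 in mutant embryos, against 6.11, 5.78 and 5.89 in control embryos (2.20 ± 0.18). Plac1, an X-linked gene of the placenta, was at 6.58, 6.24 and 6.61 in mutant embryos, against 4.20, 4.34 and 4.41 in control embryos (2.16 ± 0.13). Tubb3, the β-tubulin of neurons, was at 8.04, 7.80 and 7.68 in mutant embryos, against 5.97, 5.66 and 5.85 in control embryos (2.01 ± 0.13). In these 3 genes mutant embryos of every pool were above every control pool, as the naming rule required. Gnao1, a G protein subunit of neurons, was at 6.28, 6.27 and 6.28 in mutant embryos, against 4.46, 4.66 and 4.52 in control embryos (1.73 ± 0.12), and Csrp2, a LIM protein of smooth muscle, differed by 1.87 ± 0.14.

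Rgs2, which switches off G protein signals, was at 8.68, 8.58 and 8.90 in mutant embryos, against 6.69, 6.62 and 6.50 in control embryos (2.11 ± 0.15). Igf2, an imprinted growth factor, was at 6.54, 6.32 and 6.12 in mutant embryos, against 4.52, 4.82 and 4.39 in control embryos (1.75 ± 0.13). Cxcr3, an X-linked chemokine receptor, differed by 1.98 ± 0.17, and Gjb2, the gap junction protein connexin 26, by 1.78 ± 0.17. Ddah1, which degrades methylated arginine, and Pcbd2, a dehydratase and transcription cofactor, differed by 1.98 ± 0.17 and 2.03 ± 0.19. The 30 largest named rises ranged from 1.64 to 2.43.

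In 13 genes, all control arrays were below 5 and all mutant arrays above 6, so these genes were near the dim end only in the control. The 10 with the largest difference were Plac1, Ddah1, Dgkk, Lurap1l, Gjb2, Igf2, Gnao1, Prl8a2, Extl1 and Taz (tafazzin). Dgkk, an X-linked diacylglycerol kinase, was at 6.63, 6.83 and 6.57 in mutant embryos, against 4.78, 4.94 and 4.80 in control embryos. Prl8a2, a placental hormone of the prolactin family, was at 6.41, 6.01 and 6.04 in mutant embryos, against 4.55, 4.81 and 4.29 in control embryos. Of the 13 genes, 4 are on the X chromosome, and all 13 were also called higher in mutant embryos under α-amanitin, against 6.94% of all genes.

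The reverse pattern, with all mutant arrays below 5 and all control arrays above 6, was found in 26 genes. Among them, Cox7a1, a subunit of cytochrome c oxidase, was at 4.73, 4.71 and 4.70 in mutant embryos, against 6.51, 6.48 and 6.54 in control embryos (-1.80 ± 0.08). Scd1, the desaturase that makes oleic acid, was at 4.99, 4.51 and 4.76 in mutant embryos, against 6.62, 6.39 and 7.04 in control embryos (-1.93 ± 0.16), and Rngtt, the enzyme that caps mRNA, at 4.92, 4.37 and 4.87 in mutant embryos, against 6.67, 6.26 and 6.44 in control embryos (-1.74 ± 0.15). None of the 26 was called lower in mutant embryos under α-amanitin, where only 4.01% of all genes were.

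X-linked genes were called at shares near those of all genes. Of 721 X-linked genes, 79 were called higher (11.0%) and 115 lower (16.0%), against 8.71% and 16.6% of all genes, and the median difference was 0.03. At least 2-fold, 21 X-linked genes were higher and 36 lower.

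A pair of gene clusters, picked out after their values were seen, contributed several rises. All 6 measured genes of the Tcl1 family on chromosome 12 were called higher, against 8.71% of all genes. Their median difference was 1.67. Tcl1, a coactivator of the kinase Akt that is stored in the egg, was at 11.003, 11.12 and 10.93 in mutant embryos, against 9.22, 9.49 and 8.89 in control embryos (1.82 ± 0.14), and Tcl1b4 was at 9.98, 9.86 and 9.67 in mutant embryos, against 7.93, 8.04 and 6.94 in control embryos (2.20 ± 0.26). These genes are close copies of each other, so their probe sets may share signal and count as less than 6 independent measurements. None of the 6 was called under α-amanitin, where 6.94% of all genes were called higher and 4.01% lower.

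Keratins of chromosome 15, mostly type II keratins of epithelia, were the other cluster. Of 25 measured genes, 8 were called higher and 0 lower, against 8.71% and 16.6% of all genes. Their median difference was 0.10. Krt73 was at 5.91, 6.33 and 6.21 in mutant embryos, against 4.23, 4.35 and 4.40 in control embryos (1.83 ± 0.16), Krt71 at 6.05, 5.91 and 5.80 in mutant embryos, against 4.19, 4.30 and 4.30 in control embryos (1.65 ± 0.11) and Krt79 at 6.06, 6.24 and 5.75 in mutant embryos, against 4.36, 4.38 and 4.41 in control embryos (1.64 ± 0.13). Krt71 and Krt73 are keratins of the hair follicle sheath, and Krt8, of simple epithelia, differed by 1.23 ± 0.16. The 17 keratins not called stayed dim, with the highest mean at 4.93 in mutant and 4.85 in control embryos. Of the 8 called, 6 were also higher in mutant embryos under α-amanitin, against 6.94% of all genes.

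Genes typical of oocytes and 2-cell embryos rose more often than they fell. Of 28 such genes, 14 rose and 3 fell, with a median of 0.49 (18 and 1 after quantile normalization); 3 falls became 1 without mutant replicate 2 or 3 or without control replicate 1 or 3. Zar1, a maternal-effect gene that binds stored mRNA, was at 8.24, 8.10 and 8.32 in mutant embryos, against 7.01, 6.85 and 6.87 in control embryos (1.31 ± 0.12). Bmp15, a growth factor secreted by the oocyte, differed by 1.12 ± 0.12, and Gdf9, its partner, by 0.55 ± 0.12. Zp3, a protein of the egg coat, was at 7.08, 6.73 and 6.78 in mutant embryos, against 7.59, 7.21 and 7.32 in control embryos (-0.51 ± 0.14). Zfp352, a 2-cell gene, differed by 0.67 ± 0.16 and was called, and Tcstv3, another 2-cell gene, was at 8.86, 8.28 and 8.68 in mutant embryos, against 7.87, 8.52 and 8.13 in control embryos and was not called.

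Of 18 members of the Nlrp family and the subcortical maternal complex, which is stored in the egg and needed for the first cleavages, 7 rose and 0 fell (median 0.35; 15 and 0 after quantile normalization). Ooep was at 8.42, 8.43 and 8.77 in mutant embryos, against 6.90, 7.16 and 6.84 in control embryos (1.57 ± 0.15). Nlrp5 was at 8.88, 8.42 and 8.65 in mutant embryos, against 7.37, 7.14 and 7.23 in control embryos (1.40 ± 0.14), and Nlrp9c differed by 1.104 ± 0.14. The mutant arrays of Ooep and Nlrp5 all lay above the control arrays, as the naming rule required.

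Proteins that store and translate maternal mRNA changed in both directions. Of 38 measured, 5 rose and 16 fell, with a median of -0.02; after quantile normalization 16 rose and 7 fell, with a median of 0.19. The rises were Pabpc1l (1.31), Eif4e1b (1.45), Zar1, Dazl (0.89) and Ybx2 (0.59), genes of the germ line. Larp1, which binds mRNA of ribosomal proteins, fell and was at 5.04, 5.19 and 5.08 in mutant embryos, against 7.14, 6.82 and 7.15 in control embryos (-1.93 ± 0.11). Of 29 genes of deadenylation and mRNA decay, 3 rose and 6 fell, against 10 and 4 after quantile normalization, with a median of -0.03 that lay at -0.07 to 0.12 over the alternatives. Cnot1, the scaffold of the deadenylase, differed by -1.41 ± 0.15, and the decapping factor Dcp1a by 1.26 ± 0.15.

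Homeobox and Pramel genes of the early embryo included changes in both directions. Of 3 Obox genes, Obox5 rose and Obox6 fell: Obox5 was at 8.93, 9.10 and 9.01 in mutant embryos, against 7.49, 7.48 and 7.54 in control embryos (1.51 ± 0.14), and Obox6 at 5.28, 4.57 and 4.72 in mutant embryos, against 6.78, 6.46 and 6.64 in control embryos (-1.77 ± 0.17). Of 10 Pramel genes, 3 rose and 4 fell (median -0.31), against 4 and 4 after quantile normalization (median 0.01). Pramel6 and Pramel7, which are expressed in the preimplantation embryo, differed by -1.60 ± 0.11 and -1.74 ± 0.21, and Pramel12 by 0.82 ± 0.11. Members of both families resemble each other in sequence, so single values are uncertain.

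Lineage and signalling lists had members called in both directions. Of 20 blastocyst lineage markers, 3 rose and 4 fell (median 0.06; 6 and 3 after quantile normalization). Tfap2c, a factor of the trophectoderm, was at 5.60, 5.06 and 5.46 in mutant embryos, against 6.79, 6.63 and 6.66 in control embryos (-1.32 ± 0.15), and Fgf4, a growth factor of the inner cell mass, differed by -1.13 ± 0.13. Dab2, an endocytic adaptor of primitive endoderm, differed by 1.09 ± 0.10, while Cdx2 (0.02) and Gata6 (0.06) were not called. Sox17, the remaining defining marker of this list, was called with the deposited values, but its call was lost under some setting. Of 30 Hippo and trophectoderm pathway genes, 4 rose and 7 fell, against 8 and 5 after quantile normalization, with a median of 0.01 that lay at -0.02 to 0.03 over the alternatives, and the coactivator Wwtr1 differed by -0.91 ± 0.09. Of 41 Wnt pathway genes, 7 rose and 3 fell (median 0.04; 9 and 3 after quantile normalization), with Tcf7 at 0.78 ± 0.10 and Gsk3b at -0.92 ± 0.12; 4 rose without mutant replicate 2 or without control replicate 1. Of 29 immediate-early and stress-response factors, 6 rose and 3 fell (median 0.08; 7 and 3 after quantile normalization), with Max, the partner of Myc, at 0.99 ± 0.14.

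G protein regulators and the cytoskeleton leaned upward after rescaling. Of 36 G protein signalling genes, 9 rose and 4 fell (median 0.16), and 16 and 2 did so after quantile normalization. Of 46 actin, tubulin and cytoskeletal genes, 10 rose and 10 fell (median 0.11), and 20 and 6 did so after quantile normalization. Arpc1a, a subunit of the actin-branching complex, was at 5.50, 5.12 and 5.46 in mutant embryos, against 7.49, 7.23 and 7.51 in control embryos (-2.05 ± 0.15). Of 31 keratin and neuronal genes listed as silent in early embryos, 6 rose and 1 fell (median 0.08; 5 and 1 after quantile normalization). Besides Tubb3, Uchl1, a ubiquitin hydrolase of neurons and oocytes, differed by 1.25 ± 0.10. The number higher fell to between 2 and 4 when any 1 of the 6 arrays was left out, and was lowest without mutant replicate 2.

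Surface proteins changed in both directions. Of 41 adhesion and junction genes, 7 rose and 7 fell, against 10 and 6 after quantile normalization, with a median of 0.05 that lay at -0.05 to 0.08 over the alternatives. The gap junction gene Gja1 (connexin 43) was at 5.24, 4.87 and 4.90 in mutant embryos, against 7.24, 6.92 and 6.90 in control embryos (-2.01 ± 0.13), while Gjb2 was at 6.85, 6.70 and 6.57 in mutant embryos, against 4.98, 4.99 and 4.82 in control embryos (1.78 ± 0.17). Of 31 glucose and amino acid transporters, 10 rose and 9 fell, against 10 and 8 after quantile normalization, with a median of 0.02 that lay at -0.26 to 0.06 over the alternatives. Slc6a9, the glycine transporter of early embryos, was at 8.95, 8.98 and 8.84 in mutant embryos, against 7.27, 7.41 and 7.35 in control embryos (1.58 ± 0.14), and the number higher was 4 to 6 when any 1 of the 6 arrays was left out, lowest without control replicate 3. Of 21 class I histocompatibility and antigen processing genes, H2-Q6, Psmb10 (-0.99) and H2-Q10 (-0.32) fell and none rose (median -0.09). Over all genes 16.6% fell and 8.71% rose, so falls in this list were no more frequent than over all genes. The number of class I genes higher was 1 without mutant replicate 1.

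The genotype difference under α-amanitin comes from arrays that share no sample with the untreated ones. There, 1502 genes were called higher in mutant embryos (6.94%) and 867 lower (4.01%), and groups did not overlap in 33.3%. Of the genes higher in untreated mutant embryos, 564 were also higher in treated ones, which is 29.9% of the untreated and 37.5% of the treated rises. Of those lower, 247 were lower in both, which is 6.89% of the untreated and 28.5% of the treated falls, and 407 untreated falls were higher under treatment.

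The levels in all 4 groups are set side by side for the genes changed at least 2-fold. Among the 252 genes that rose at least 2-fold, the median level was 6.77, 6.67 and 6.70 in the untreated mutant arrays and 5.49, 5.52 and 5.31 in the untreated control arrays. With α-amanitin it was 6.87 and 7.40 in mutant arrays and 6.26, 6.24 and 6.16 in control arrays. Among the 1220 genes that fell at least 2-fold, it was 5.81, 5.46 and 5.72 in untreated mutant arrays and 7.23, 7.03 and 7.11 in untreated control arrays. With α-amanitin it was 5.00 and 5.27 in mutant arrays and 4.95, 4.94 and 4.88 in control arrays, so treated embryos of both genotypes were low.

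The treated control mean was below 5 in 672 of the 1220 genes that fell at least 2-fold (55.1%) and in 42 of the 252 that rose at least 2-fold (16.7%). Classed by the treated control mean, of 177 genes at 9 or more 55 rose (31.1%) and 24 fell (13.6%). Of 15770 genes below 5, 742 rose (4.71%) and 2002 fell (12.7%). Over all genes the Pearson correlation of the untreated and treated genotype differences was 0.08, a description of genes that share arrays within each comparison.

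Of the 30 largest untreated rises, 23 were called higher and 0 lower under α-amanitin, against 6.94% and 4.01% of all genes. Rgs2 was at 9.06 and 9.63 in treated mutant embryos, against 7.07, 6.83 and 6.71 in treated control embryos (2.48), and Plac1 at 6.88 and 7.28 in treated mutant embryos, against 4.40, 4.40 and 4.44 in treated control embryos (2.67). Psenen, in contrast, was at 10.54 and 10.88 in treated mutant embryos, against 10.91, 10.62 and 10.53 in treated control embryos (0.03), and its untreated difference exceeded its treated one by 2.36 (adjusted p = 7.96e-05). Tests of that interaction were called for 3831 genes (17.7%).

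Of the 30 largest falls, 2 were called higher and 0 lower under α-amanitin, against 6.94% and 4.01% of all genes, so few calls would be found in any 30 genes. A treated control mean below 5 was found in 18 of them, and in 15770 of all 21642 genes. Flvcr2 was at 4.51 and 4.41 in treated mutant embryos, against 4.60, 4.44 and 4.30 in treated control embryos, and Cox17 at 4.75 and 4.72 in treated mutant embryos, against 4.65, 4.71 and 4.88 in treated control embryos. Rnf7, a ring protein of cullin ligases, was at 7.97, 7.19 and 7.58 in mutant embryos, against 10.23, 9.80 and 10.05 in control embryos and, with the inhibitor, at 6.91 and 7.24 in treated mutant embryos, against 5.95, 6.11 and 6.02 in treated control embryos, so the genotype difference was -2.45 without and 1.05 with α-amanitin. Gldc was the other such gene, with -2.34 and 0.59.

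**Figure D4:**
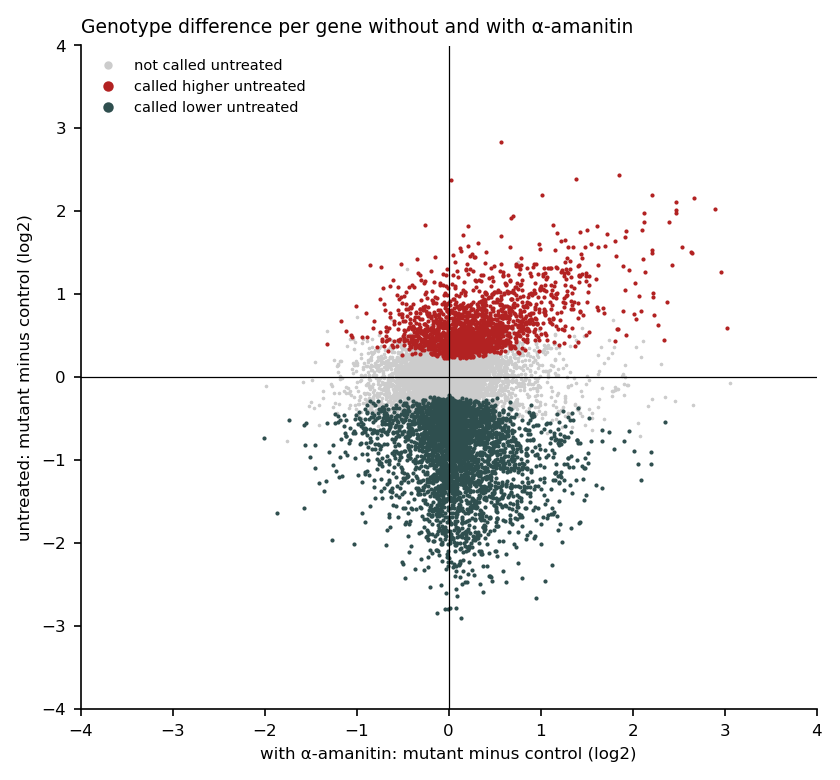
Genotype difference (mutant minus control, log2) per gene with α-amanitin (horizontal) and without it (vertical), with genes called higher and lower in the untreated comparison coloured. Of the untreated rises 564 were also called higher with the inhibitor, and of the falls 247 were also called lower.

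Promoters of falling and rising genes differed in base composition. A promoter was counted as CpG-rich where its observed over expected CpG ratio was at least 0.6 and its GC content at least 55%. CpG-rich promoters made up 53.4% of 1463 genes called higher (95% Wilson interval, counting error only, 50.8% to 55.9%) and 68.0% of 2745 genes called lower (66.2% to 69.7%). The share was 63.6% of 4357 uncalled genes in the brighter 50% and 45.3% of all 15391 promoters. Among genes changed at least 2-fold it was 47.9% of 213 rises and 70.5% of 971 falls. The part that brightness or expression breadth has in these shares was not tested.

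Short motifs were searched on both strands of the same 300 bases. The Ets core, CCGGAAG, was found in 9.84% of promoters of rises, 25.2% of falls, 17.1% of the uncalled brighter genes and 12.7% of all. The E-box CACGTG was found in 8.75%, 13.04%, 9.66% and 8.38% in the same order. The NRF1 element TGCGCA was in 11.8%, 17.8%, 14.6% and 10.9%, and the YY1 core AAGATGGCG in 2.39%, 4.70%, 2.82% and 2.16%. The TATA box TATAAA was in 8.82% of rises and 6.27% of falls, against 6.47% of the uncalled brighter genes and 12.1% of all. A match describes the letters in this window and not a bound factor. The part of CpG content in the shares of motifs that hold CG was not tested.

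**Figure D5:**
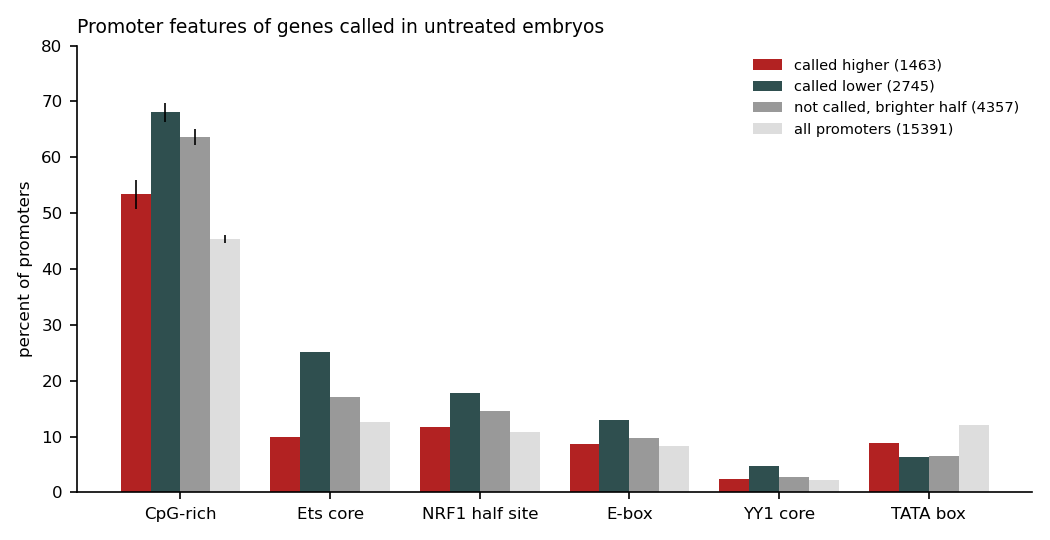
Percent of promoters that are CpG-rich or hold each motif, for genes called higher, genes called lower, uncalled genes of the brighter 50% and all promoters; error bars on the CpG-rich bars are 95% binomial intervals. The Ets core stands at 25.2% of falls and 9.84% of rises.

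Many genes differed little. The 95% interval of the difference lay within 0.5 of 0 in 14088 genes, and in 622 of the 3157 genes with a mean over the 6 arrays above 6. Snrpd3, an Sm protein of the spliceosome, was at 10.15, 10.01 and 10.42 in mutant embryos, against 10.45, 10.15 and 10.17 in control embryos, a difference of -0.06 (95% interval -0.36 to 0.23), while under α-amanitin it differed by 3.06. The mitochondrial transcripts COX1 and CYTB differed by -0.23 (-0.49 to 0.04) and -0.03 (-0.31 to 0.26), and Tpt1, an abundant translationally controlled protein, by 0.06 (-0.21 to 0.33). Among the brightest genes called, Tcl1, Eif4e1b, Ndufa4 (1.26 ± 0.17) and Ldhb (1.32 ± 0.10) were higher, and the ribosomal proteins Rpl30 (-1.57 ± 0.16), Rpl37a (-1.52 ± 0.20) and Rps14 (-1.47 ± 0.15) lower.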

How the data were processed

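The authors deposited 1 table of log2 values for 34760 probe sets and 11 arrays, ranging from 1.11 to 12.85. R 2.10.0 and affy were used, per the submitters' processing notes; they do not name the background correction or the normalization across arrays, which are unknown here. The values were used as deposited, with no filter on dim probe sets. They show RNA relative to the rest of the same array only. The labels give no slide or scan date, so no batch was fitted.

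The platform annotation gave 1 gene to 23295 probe sets, several to 1317 and none to 10148. Symbols were updated through Entrez identifiers and the GRCm38.p6 RefSeq gene table, which held 20049 of them and lacked 236; 3010 probe sets had no identifier. Probe sets with several genes were tested but not named.

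A linear model with 4 group means was fitted to all 11 arrays with limma 3.58.1 (lmFit and eBayes) under R 4.3.3. It had 7 residual and 3.59 prior degrees of freedom, and its 2-sided p-values were adjusted by the Benjamini-Hochberg method. The procedure was tested on simulated data. The named genes are the 30 largest rises and falls with groups that did not overlap (clone-type names passed over), up to 3 called members of each of 59 gene lists by smallest adjusted p, up to 10 genes per direction all below 5 in 1 group and all above 6 in the other, the 10 brightest called genes per direction, the 10 brightest with an interval within 0.5 of 0, and Rnf2, Ring1 and defining markers. Genes outside that rule were picked after their values were seen: Gtf2b, Prps2, Dazl, Ybx2, H1f8, Gm4340, Krt8, Krt79 and the paralog pairs. The comparison and the lists were chosen with earlier results of these data known, so list counts are descriptions. Of 1844 list entries, 1769 were measured.

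Alternatives were quantile, cyclic loess and median centring, the untreated arrays alone, an intensity trend in the prior, array weights, the brighter 50% of probe sets, the mean over a gene's probe sets, the replicate number as a block, and leaving out each of the 6 arrays. Promoters are RefSeq sequences (GRCm38.p6), matched by symbol for 15391 genes.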

Additional observations from a re-analysis of the deposited data

Results flagged for a closer look

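For the 15 largest untreated rises and the 15 largest untreated falls, limma tested whether the genotype difference without α-amanitin differed from that with it, as the untreated minus the treated difference (log2, adjusted p under 0.05). It did for 4 of the rises: Psenen by 2.36, Tcl1b2 by 1.25, Atp6v1f by 1.24 and Ly6e by 0.999. Psenen, Tcl1b2 and Atp6v1f were not called under α-amanitin, with treated differences of 0.03, 0.70 and 0.67, while Ly6e was, at 1.39.

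It did for all 15 falls. Both sets of 15 genes were chosen by their untreated difference, which is part of the tested contrast, so calls were likely from the start. The interaction was called for 1152 of all 1220 genes at least 2-fold lower. It was called for 97 of the 252 at least 2-fold higher, and for 17.7% of all genes. The gap was -3.61 for Rps25, -3.04 for H2-Q6, -2.97 for Wdr74 and -2.93 for Impdh2. It was -2.86 for Tomm5, -2.79 for Flvcr2, -2.78 for Cox17, -2.76 for Npl, -2.73 for Riox1 and -2.71 for Ctsc. For Rab20, Rps19bp1, Wdr45b, Rps18 and Faap24 it was -2.68, -2.64, -2.64, -2.57 and -2.32. None of these 15 genes was called under α-amanitin, where 6.94% of all genes were called higher and 4.01% lower. A gene already near the dim end in treated control embryos has little room to fall, and its part in these gaps was not tested.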

How the results depend on the processing

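Main counts over probe sets were 2365 higher, 4752 lower, 327 at least 2-fold higher and 1726 at least 2-fold lower in untreated mutant embryos. Quantile normalization moved 3 of them by over 1.5 times, to 3993 higher, 692 at least 2-fold higher and 957 at least 2-fold lower, with 3629 lower; the cause was not tested. The other alternatives fitted to probe sets kept all 4 counts within 1.5 times; the mean over a gene's probe sets gives no count of probe sets. Leaving out 1 untreated array gave 1660 to 2031 higher, 3929 to 4333 lower, 295 to 342 at least 2-fold higher and 1536 to 1869 at least 2-fold lower, with fewest at least 2-fold lower without mutant replicate 2. With the replicate number as a block, 2284 probe sets were higher and 4602 lower, with 327 and 1722 at least 2-fold. Deviations of same-numbered arrays from their group means correlated by 0.154, 0.088 and 0.043. Differently numbered arrays were not compared in this way, so a pairing by number was not tested. Of 4100 values of 274 named genes under the alternatives, 4037 kept their call, 57 lost the call, 6 gained one and 0 calls reversed. In 258 of the 274 genes the difference stayed on the same side of 0 under every alternative. Calls were lost under some setting for Rplp1, H2bc1, H1f1, Sox17, Wtap, Zp3, H2-Q10, Dppa5a, Zbed3, Zfp352 and Rps29. Kcmf1, Omt2b, Cdv3, Tpt1 and Tcstv3 were called after quantile normalization. The number of arrays limits the precision, and probe sets near the dim end have little room to fall.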

Other observations

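Several oocyte-enriched genes have a widely expressed paralog with a like function, and 12 such pairs were set side by side after values of some were seen, so no test of the set is given. Of the 12 oocyte-enriched members, 9 were called higher and 0 lower in untreated mutant embryos, with a median difference of 0.65. Of their 12 counterparts, 0 were called higher and 7 lower, with a median of -0.83, against 8.71% higher and 16.6% lower over all genes. In brightness decile 10 these shares were 19.2% and 35.1%, and the pairs were not compared with genes of like brightness.

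The cap-binding protein Eif4e1b of oocytes was at 11.11, 11.17 and 11.21 in mutant embryos, against 9.75, 9.93 and 9.46 in control embryos (1.45 ± 0.12), while its counterpart Eif4e was at 8.25, 7.94 and 8.14 in mutant embryos, against 9.18, 9.002 and 8.97 in control embryos (-0.94 ± 0.11). The poly(A)-binding protein Pabpc1l was at 6.64, 6.57 and 6.60 in mutant embryos, against 5.22, 5.34 and 5.31 in control embryos (1.31 ± 0.09), while Pabpc1 was at 7.29, 6.59 and 6.90 in mutant embryos, against 8.63, 8.41 and 8.68 in control embryos (-1.65 ± 0.17). In both pairs the groups were apart in opposite directions. The nuclear poly(A)-binding proteins Pabpn1l and Pabpn1 differed by 1.23 ± 0.23 and -0.76 ± 0.17, and the TATA-binding factors Tbpl2 and Tbp by 0.41 ± 0.09 and -0.90 ± 0.13. The Y-box proteins Ybx2 and Ybx1 differed by 0.59 ± 0.18 and -0.96 ± 0.18.

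In the other pairs 1 member or neither was called, and the difference between partners was not tested. The oocyte importin Kpna7 differed by 1.62 ± 0.26 and was called, and Kpna2, at -0.13, was not. The kinase Wee2, which holds the egg in meiosis, differed by 1.07 ± 0.16 and was called, and Wee1, at -0.40, was not. The nucleoplasmins Npm2 and Npm1 differed by 0.70 ± 0.14 and -0.43, and the cohesin subunits Smc1b and Smc1a by 0.34 ± 0.10 and -0.31, with the oocyte member of each pair called. The limma adjusted p was 0.0552 for Wee1, 0.0533 for Npm1 and 0.0552 for Smc1a, just above the threshold, and their groups did not overlap. For Rec8 and Rad21 the differences were 0.15 and -0.99 ± 0.13, and for Stag3 and Stag2 0.38 and -0.999 ± 0.08, with the widely expressed member called and Stag3 at an adjusted p of 0.0571. Lsm14b and Lsm14a differed by 0.28 and -0.01, and neither was called. Under α-amanitin 3 oocyte-enriched members were called higher and 1 lower in mutant embryos, and of the counterparts 4 were higher and 1 lower. Over all genes 6.94% were higher and 4.01% lower there.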
